A study of Mus musculus with 2 samples.

Results

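The genes described here control whether a cell divides: Trp53, Mdm2, Mdm4 and Btg2 of the p53 pathway, Myc, Mycn and Max of the MYC network, and the retinoblastoma gene Rb1. They were taken by name, 8 of 21887 protein-coding genes on the primary chromosomes, with earlier results of these data known. Each was read over its RefSeq span in mm10 plus 20 kb on either side, called its window below. The peaks come from chromatin immunoprecipitation followed by sequencing (ChIP-seq) of wild-type mouse aortic endothelial cells. These cells were taken from the aorta and cultured with serum, heparin and endothelial growth supplement. There was 1 library per antibody, against ETS1 or against ETS2, and no further genotype or treatment separates them. No input or IgG control was used here, age, sex and number of animals are not given in the sources used here, and peak lists do not measure expression, so the labelled cell type was not checked against markers. The lists held 77295 ETS1 and 63556 ETS2 peaks from 143778022 and 134607908 tags, and every interval below covers counting error only. Each list is described on its own, since without replicates no difference between the antibodies can be tested.

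ETS1 and ETS2 are related transcription factors that bind DNA with a GGAA core and respond to growth factor signals through RAS and ERK. The p53 protein halts division or triggers cell death after damage; MDM2 marks it for destruction, MDM4 restrains it, and BTG2 is an antiproliferative protein that p53 induces. MYC and N-MYC drive growth as heterodimers with MAX at E-boxes, the sequence CACGTG, and the RB protein holds E2F factors in check until cyclin-dependent kinases phosphorylate it.

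Peaks overlapped the 300 promoter bases of Trp53 in the ETS2 list and of Mdm4 and Btg2 in the ETS1 list, so these promoters are shown. Each runs 5′ to 3′ from 250 bases before to 50 after the start in RefSeq GRCm38.p6, the assembly of mm10, and capitals mark the bases covered by the peak. The Trp53 promoter (chr11:69580109-69580408, plus strand) has 91 bases in an ETS2 peak. The outer of the 2 annotated Mdm4 promoters (chr1:133030538-133030837, minus strand) holds a whole ETS1 peak of 177 bases, and the Btg2 promoter (chr1:134079106-134079405, minus strand) has 47 bases in an ETS1 peak. The last line gives 155 bases of the ETS1 peak at an inner start of Wrap53, the gene that faces Trp53 head to head (minus strand, from the promoter at chr11:69579200-69579499).
Trp53: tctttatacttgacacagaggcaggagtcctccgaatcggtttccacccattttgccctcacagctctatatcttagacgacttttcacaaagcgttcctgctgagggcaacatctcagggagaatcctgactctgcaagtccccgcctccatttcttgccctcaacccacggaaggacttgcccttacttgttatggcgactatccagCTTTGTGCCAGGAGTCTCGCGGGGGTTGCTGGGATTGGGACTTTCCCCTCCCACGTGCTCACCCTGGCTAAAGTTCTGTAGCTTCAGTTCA
Mdm4: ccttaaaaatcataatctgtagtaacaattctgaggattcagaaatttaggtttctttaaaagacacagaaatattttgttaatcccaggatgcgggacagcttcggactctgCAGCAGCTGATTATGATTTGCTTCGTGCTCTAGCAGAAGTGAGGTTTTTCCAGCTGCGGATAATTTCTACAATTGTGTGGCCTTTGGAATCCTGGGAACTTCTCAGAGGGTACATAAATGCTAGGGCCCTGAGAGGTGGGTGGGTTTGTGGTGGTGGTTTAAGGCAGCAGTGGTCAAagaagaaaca
Btg2: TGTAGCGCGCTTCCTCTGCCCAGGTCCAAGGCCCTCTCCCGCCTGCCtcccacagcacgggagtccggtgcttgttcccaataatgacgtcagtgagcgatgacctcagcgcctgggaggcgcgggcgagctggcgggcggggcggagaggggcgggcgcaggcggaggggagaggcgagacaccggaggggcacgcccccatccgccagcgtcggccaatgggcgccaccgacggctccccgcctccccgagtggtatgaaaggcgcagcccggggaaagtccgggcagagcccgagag
Wrap53: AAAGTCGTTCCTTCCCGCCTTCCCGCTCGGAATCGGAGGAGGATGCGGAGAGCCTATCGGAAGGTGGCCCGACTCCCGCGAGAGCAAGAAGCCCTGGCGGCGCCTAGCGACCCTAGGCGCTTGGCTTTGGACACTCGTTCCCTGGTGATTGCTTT

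The ETS core GGAA, searched on both strands as were all motifs, occurs in 96.0% of the 32851 promoters in the table, so its presence separates no promoter from another. It lay once in the 91 Trp53 bases, 3 times in the Mdm4 peak, once in the 47 Btg2 bases and 6 times in the Wrap53 bases. The extended form CCGGAA, which contains GGAA, was in 2 of the 7 promoters of the 6 members in the table (Trp53, Mdm2, Mdm4, Btg2, Mycn and Max), beside 14.9% of all promoters. It lay 7 bases before the Mdm2 start, read on the other strand, and 21 bases after the inner Mdm4 start. The E-box CACGTG was in the promoters of Trp53, 10 bases after the start and inside the ETS2 peak, and of Max, 3 bases before the start, beside 7.15% of all promoters. Of other motifs, TGANTCA (AP-1) lay 134 bases before the inner Mdm4 start (7.81% of all promoters). TATAAA was in the Trp53 promoter (13.6%), but 248 bases before the start, read on the other strand and outside the ETS2 peak. GGGCGG, the GC box, was in the promoters of Btg2, Mdm2 and Mycn (35.7%). The CCGGAA and CACGTG matches are shown in capitals with 10 bases on either side.
Mdm2, CCGGAA on the other strand: ggcccgtggcTTCCGGcgttctctcc
Mdm4 inner start, CCGGAA: cccggcctccCCGGAAgctcttgcga
Trp53, CACGTG: tttcccctccCACGTGctcaccctgg
Max, CACGTG: tgagcccggtCACGTGttagggggcc

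Over their windows, 7 of the 8 genes held an ETS1 peak (87.5%, 95% Wilson interval 52.9 to 97.8) and 8 an ETS2 peak (100%, 67.6 to 100). The shares over all protein-coding genes, 70.8% and 69.8%, lie within these intervals. On the members' own chromosomes the share of genes with an ETS1 peak over the window ran from 58.6% (chromosome 1) to 93.7% (chromosome 15). That for ETS2 ran from 64.2% (chromosome 14) to 85.9% (chromosome 10). An ETS1 and an ETS2 peak overlapped by at least 1 bp in 7 of the 8 windows, against 41.5% of genes, and in 5 of the 6 outside the packed stretch of chromosome 1 that holds Mdm4 and Btg2. Either annotated end of the gene had a peak centre no more than 1 kb away at 5 genes in the ETS1 list (62.5%, 95% Wilson interval 30.6 to 86.3) and at 6 in the ETS2 list (75.0%, 40.9 to 92.9). The same was true of 39.4% and 40.0% of all genes. Trp53, Btg2, Myc and Max had both, 4 of 8 against 28.7%. Without Mdm4 and Btg2, whose ETS1 peaks are taken up separately, 3 of 6 genes had an end peak in the ETS1 list (18.8 to 81.2%) and 5 of 6 in the ETS2 list (43.6 to 97.0%). These backgrounds take in every protein-coding gene, whatever its expression. For end peaks the interval over the 8 genes takes in the background in the ETS1 list and lies just above it in the ETS2 list. Among genes of the members' own chromosomes, the ETS1 share was 27.0% on chromosome 1 and 41.0% (chromosome 14) to 57.1% (chromosome 11) on the others. The ETS2 share ran from 33.7% (chromosome 14) to 59.0% (chromosome 10). On all of these chromosomes but 14 it lay within the ETS2 interval, so the 8 genes do not stand clear of this background. Within 500 bp of an end the count over the 8 genes was 2 for ETS1, Mdm4 and Btg2, and 4 for ETS2, Trp53, Btg2, Myc and Max.

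Mdm4 and Btg2 lie in a stretch of chromosome 1 packed with ETS1 peaks and are read apart. The other 6 windows held 37 ETS1 and 30 ETS2 peaks, with a median of 6 and 5 per window beside 2 and 2 over all genes. Per 10 kb of window the medians were 1.02 and 0.704, beside 0.315 and 0.247. The background over all genes takes in sparse chromosomes such as X. On its own chromosome, each gene but Mycn was reached or exceeded per length by 25.9 to 48.2% of genes for ETS1. For ETS2 the range over all 6 genes was 16.4 to 45.8%. Of the peaks over the 6 windows, 7 of each list overlapped the other list. These are 18.9% (9.48 to 34.2) for ETS1 and 23.3% (11.8 to 40.9) for ETS2, near the 15.9% and 19.4% of all peaks. With an overlap of at least 50% of the peak the numbers were 4 and 3, and with centres within 500 bp 13 and 14.

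**Figure D1:**
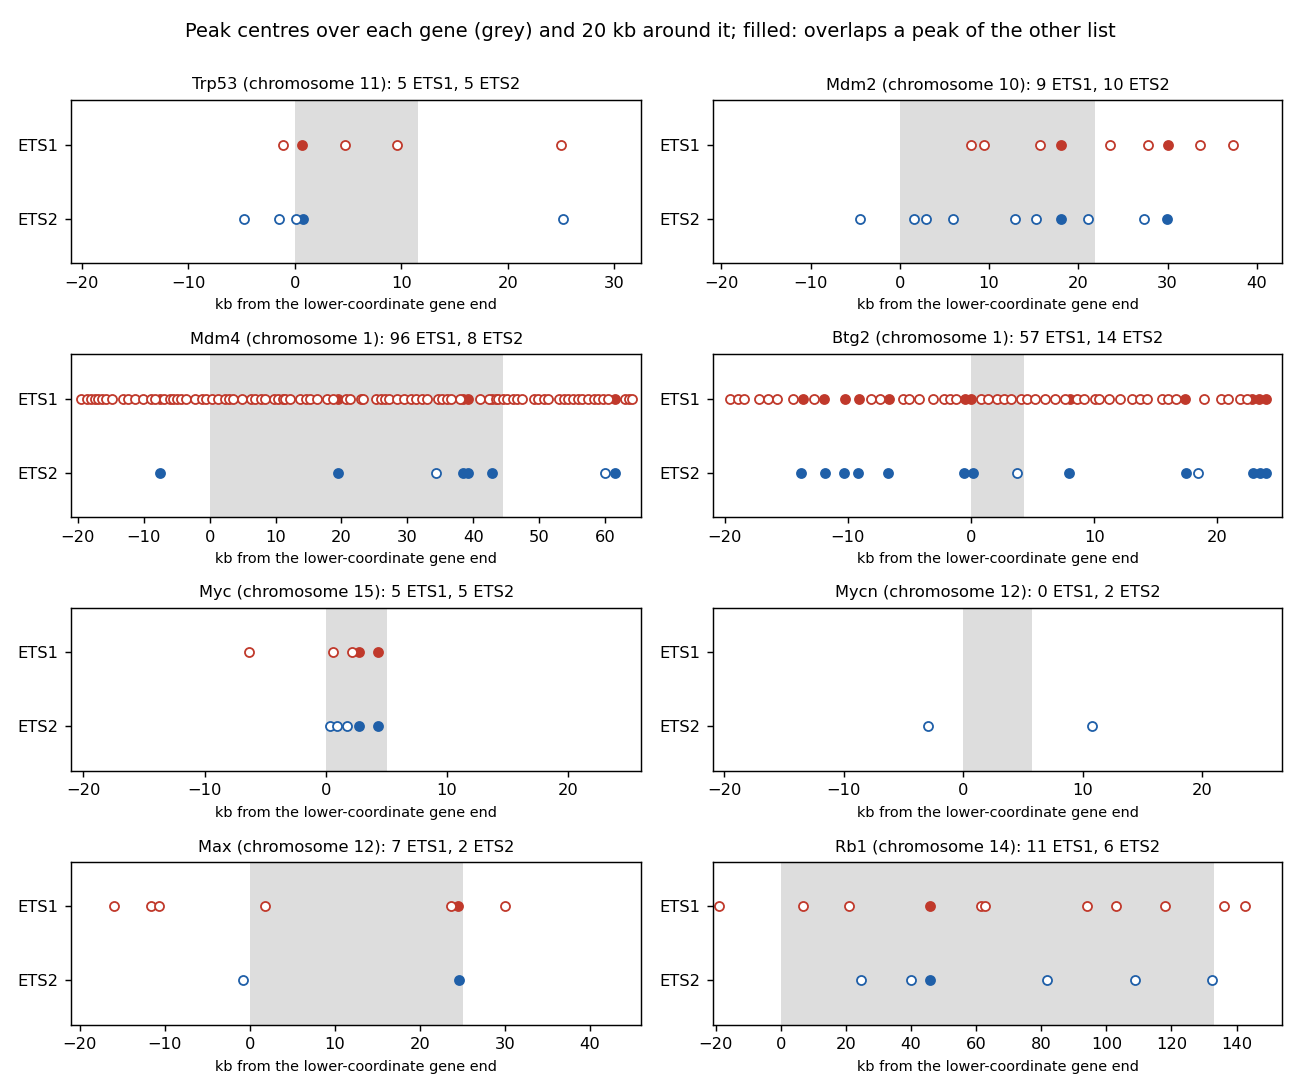
Peak centres of the ETS1 (red) and ETS2 (blue) lists over each gene (grey) and 20 kb around it, by distance in kb from the lower-coordinate gene end; filled points overlap a peak of the other list. Myc carries all its peaks but 1 ETS1 peak inside the gene, and Mycn has 2 ETS2 peaks outside the gene. The 96 and 57 ETS1 points of Mdm4 and Btg2 fill their whole windows.

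Trp53 encodes p53 (chr11:69580348-69591873). Its window held 5 ETS1 peaks and 5 ETS2 peaks (exact 95% Poisson interval 1.62 to 11.7 for each), 0.97 per 10 kb in either list beside 0.570 and 0.293 on chromosome 11. Of the genes of that chromosome, 48.2% (ETS1) and 20.1% (ETS2) had as many or more per length of window. Several of them lay where Trp53 and Wrap53, which encodes a telomerase and Cajal body protein, begin in opposite directions. An ETS2 peak at chr11:69580318-69580504 was centred 52 bp after the Trp53 start and 161 bp upstream of the outer Wrap53 start. Further into Trp53, an ETS1 peak (chr11:69580921-69581097) 650 bp after the start overlapped an ETS2 peak (chr11:69581006-69581192) 740 bp after it. The ETS1 list had no peak at the Trp53 start itself but 1 at chr11:69579178-69579354, 17 bp from the inner Wrap53 start and 1093 bp upstream of Trp53.

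The deposited files carry no height per peak, but their order is not that of the genome. It runs through the chromosomes again and again, in 226 steps for ETS1 and 137 for ETS2, as a file sorted by a value with ties would. That value is not in the files. The place of a peak is given below as the midpoint of its step, in percent from the top of its list, and peaks of the same step cannot be ranked. The Wrap53 peak stood highest of the 5 ETS1 peaks, at 4.36%, and the overlapping peak in Trp53 at 45.6%. In the ETS2 list the peak at the Trp53 start stood at 14.1% and the one 740 bp after it at 33.9%. The highest ETS2 place in the window, 6.32%, belonged to a peak at Atp1b2, a sodium pump subunit gene (chr11:69605469-69605655), whose centre was 259 bp from an ETS1 peak at 15.2% without overlapping it. Atp1b2 and Wrap53 are the neighbours that held peaks counted for Trp53, and a peak near the facing starts of Trp53 and Wrap53 cannot be assigned to either gene.

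Mdm2, the p53 ubiquitin ligase gene (chr10:117688875-117710758), had the most peaks per length outside the dense stretch. Its window held 9 ETS1 peaks (4.12 to 17.1) and 10 ETS2 peaks (4.80 to 18.4), 1.45 and 1.62 per 10 kb. Chromosome 10 as a whole was dense, with 0.473 and 0.547 per 10 kb, and 25.9% and 24.0% of its genes had as many or more per length. An ETS2 peak (chr10:117709925-117710111, place 14.1%) lay 740 bp after the start, whereas that of the ETS1 list (chr10:117712382-117712558, place 10.1%) lay 1712 bp before it. No peak of either list covered the 300 bases of the promoter.

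Inside Mdm2 lay 4 ETS1 and 7 ETS2 peaks, and the ETS2 peak that stood highest in the window, at 6.32%, lay 1577 bp inside the end opposite the start (chr10:117690359-117690545). Of 2744 genes of like length, 0.8 to 1.25 times that of Mdm2, 14.3% had at least 4 ETS1 peaks inside and 2.77% at least 7 ETS2 peaks. Among the genes of chromosome 10, 25.8% and 11.8% had as many or more per 10 kb of gene. The lists met at 2 places in the window. One pair lay inside the gene, 3869 bp (ETS1, chr10:117706801-117706977) and 3775 bp (ETS2, chr10:117706890-117707076) after the start. The other lay upstream, 8180 bp (chr10:117718850-117719026) and 8095 bp (chr10:117718760-117718946) before it. A single ETS2 peak at the far side of the window (chr10:117684309-117684495, place 93.1%) lay in Cpm, a carboxypeptidase gene.

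Myc (chr15:61985341-61990361) was the gene whose own body was most crowded outside the dense stretch. Over 5.02 kb it carried 4 ETS1 peaks and 5 ETS2 peaks, 7.97 and 9.96 per 10 kb of gene. In the 20 kb on either side there was 1 more ETS1 peak (chr15:61978904-61979080) and no ETS2 peak. No other annotated gene lies in the window, which held 5 peaks of each list (1.62 to 11.7). Of 1662 genes of like length, 46 (2.77%) had at least 4 ETS1 peaks inside and 8 (0.481%) at least 5 ETS2 peaks, with a median of 0 in either list. Chromosome 15 had 0.486 ETS1 and 0.237 ETS2 peaks per 10 kb, and 2.19% and 0.515% of its genes reached the density of the Myc body. Over the whole window Myc stood apart less, as 41.9% and 16.4% of them reached it.

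Along Myc the lists ran side by side. From the lower end, ETS1 centres lay 576, 2128, 2765 and 4300 bp into the gene, and ETS2 centres 320, 943, 1785, 2708 and 4317 bp into it. Overlaps occurred at the 2 positions nearest the upper end. The pair nearest the upper end (ETS1 chr15:61989553-61989729, ETS2 chr15:61989565-61989751) had centres 17 bp apart, the closest among the 6 windows, and stood highest of the Myc peaks, at 12.2% and 10.6%. The second pair (chr15:61988018-61988194 and chr15:61987956-61988142) had centres 57 bp apart, at 25.3% and 18.7%. The remaining peaks inside the gene stood between 33.9% and 62.5%.

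Mycn, the paralogue that is active mainly in embryonic and neural cells (chr12:12936093-12941836), was the opposite case. Its window held 0 ETS1 peaks and 2 ETS2 peaks (0.242 to 7.22), with 0 of either list inside the gene. The ETS2 peaks lay 2908 bp outside the lower end (chr12:12933092-12933278) and 5061 bp upstream of the start (chr12:12946804-12946990), in the same step of the order at 62.6%. The closest ETS1 peak to the gene was 46125 bp away. A window without an ETS1 peak was found for 29.5% of 1724 genes of like length and for Mycn alone among the 8 genes. On chromosome 12, 84.8% of genes had an ETS1 peak over the window.

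Max, the partner of MYC (chr12:76937269-76962323), lies on the same chromosome as Mycn. Its window held 7 ETS1 peaks (2.81 to 14.4) and 2 ETS2 peaks (0.242 to 7.22), intervals that overlap. Chromosome 12 had 0.353 ETS1 and 0.182 ETS2 peaks per 10 kb, against 1.08 and 0.307 in the window, and 26.8% and 45.8% of its genes had as many or more per length. The lists met just inside the gene, with an ETS1 peak 475 bp (chr12:76961685-76961861, place 33.7%) and an ETS2 peak 355 bp (chr12:76961800-76961986, place 46.0%) after the start. The second ETS2 peak lay beyond the opposite end (chr12:76936349-76936535), 827 bp outside it. Of the ETS1 peaks, 3 lay beyond that end as well, 10738 to 15998 bp away, 1 of them over Fntb, a farnesyltransferase subunit gene.

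Rb1 is the longest of the 8 genes (chr14:73192858-73325951). Its window of 173 kb held 11 ETS1 peaks (5.49 to 19.7) and 6 ETS2 peaks (2.20 to 13.1), 0.635 and 0.347 per 10 kb beside 0.309 and 0.141 on chromosome 14, where 39.5% and 33.7% of genes had as many or more. Inside the gene were 8 ETS1 and 6 ETS2 peaks, counts that 32.0% and 27.7% of 997 genes of like length reached. The upper end of Rb1 had an ETS2 peak 532 bp inside the gene (chr14:73325326-73325512, place 80.6%), and the ETS1 list came no closer than 3012 bp outside that end.

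The lists met once in the Rb1 window, within Lpar6, a lysophosphatidic acid receptor gene nested in Rb1. The ETS1 peak there (chr14:73238492-73238668, place 33.7%) was centred 689 bp after the Lpar6 start and the ETS2 peak (chr14:73238630-73238816) 832 bp after it. At 8.12% the latter stood highest of the 6 ETS2 peaks, and 4 of the other 5 stood at 80.6% or further down. An ETS1 peak at the edge of the window lay in Rcbtb2 (chr14:73173782-73173958, place 10.1%).

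**Figure D2:**
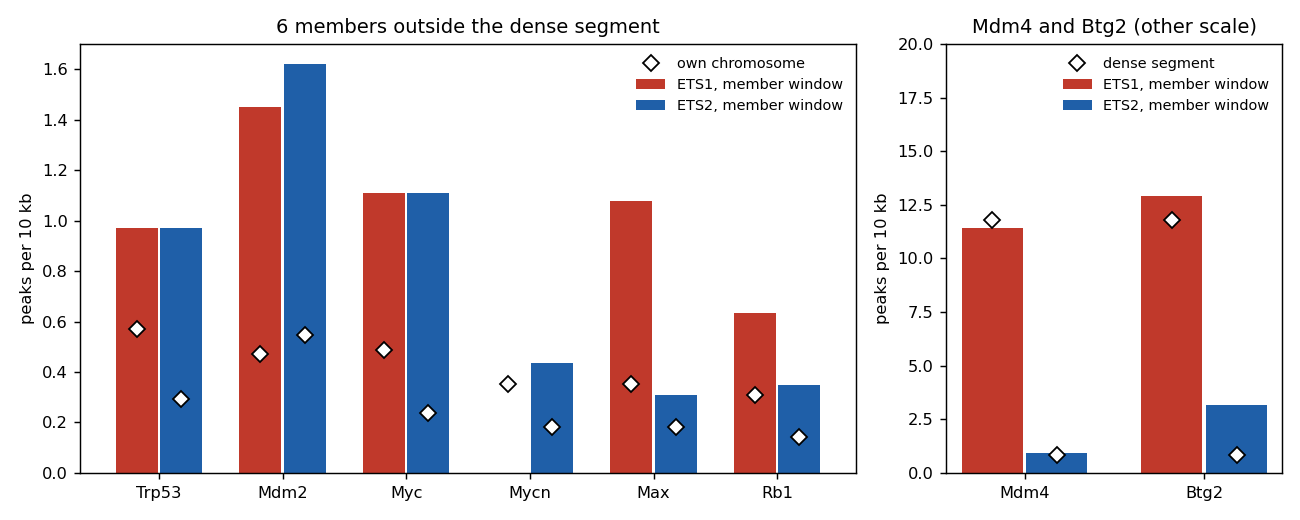
Peaks per 10 kb of window for each gene (bars, ETS1 red and ETS2 blue) beside the density of its own chromosome or of the dense segment (diamonds); 1 library per antibody, so no error bars are drawn. Mdm2 has the highest bars of the left panel, 1.45 and 1.62, and on the right Mdm4 and Btg2 stand close to the segment in ETS1 while Btg2 stands above it in ETS2.

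**Figure D3:**
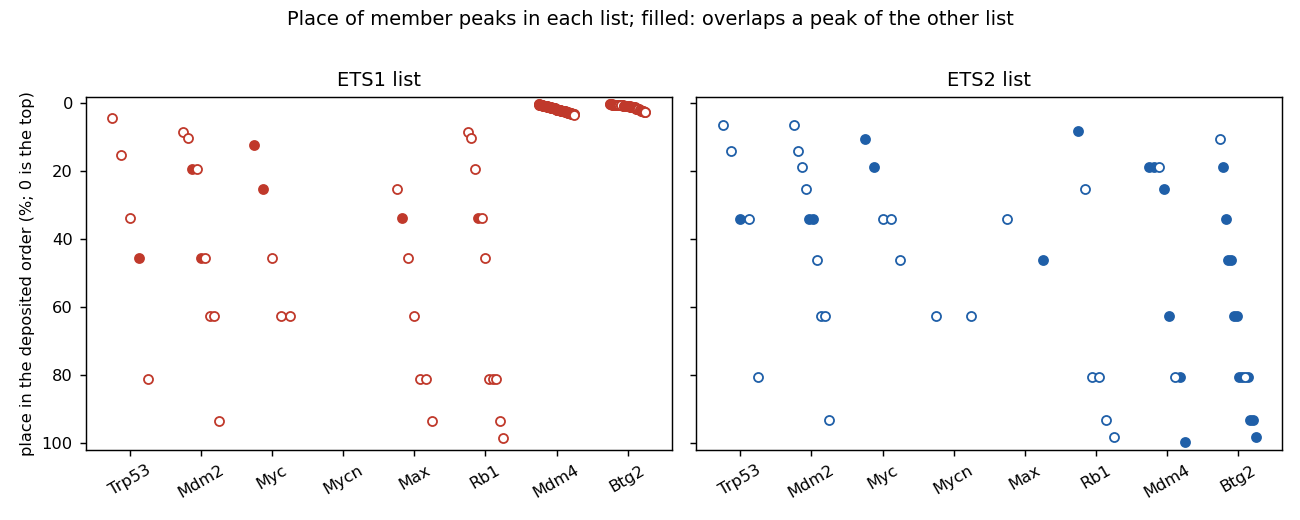
Place of each peak over the 8 windows in its deposited list, in percent from the top (0 at the top of the axis); peaks of a gene are set side by side in order of place, and filled points overlap a peak of the other list. ETS1 peaks of Mdm4 and Btg2 all lie near the top, while those of the other genes spread over the list.

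For the 6 windows together, the median place was 45.6% for ETS1 and 33.9% for ETS2. By file order, which splits tied peaks by chromosome, 22 of 37 and 19 of 30 peaks stood in the first 50% of their list. Of the same 37 and 30 peaks, 3 of each list stood in the first 10%, near the 10% of all peaks that do so by definition. In the plot of places, Myc in the ETS2 list is the only gene outside the dense stretch with more than 2 peaks of a list all at 46.0% or higher up.

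Mdm4 (chr1:132986105-133030587) and Btg2 (chr1:134074865-134079155) share a segment of 1.7 Mb (chr1:132900001-134600000) that held 2010 ETS1 peaks, 58.4% of those on the chromosome. It was found as the longest run of 100 kb bins with at least 10 times the mean ETS1 count of chromosome 1. Its edges are sharp. In the 500 kb below it there were 0 ETS1 peaks, in each of its first 83 bins of 20 kb between 16 and 28 with a median of 24, and in the 500 kb above it 7. The ETS2 list had 138 peaks in the segment, and 7 and 14 in the same flanks.

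**Figure D4:**
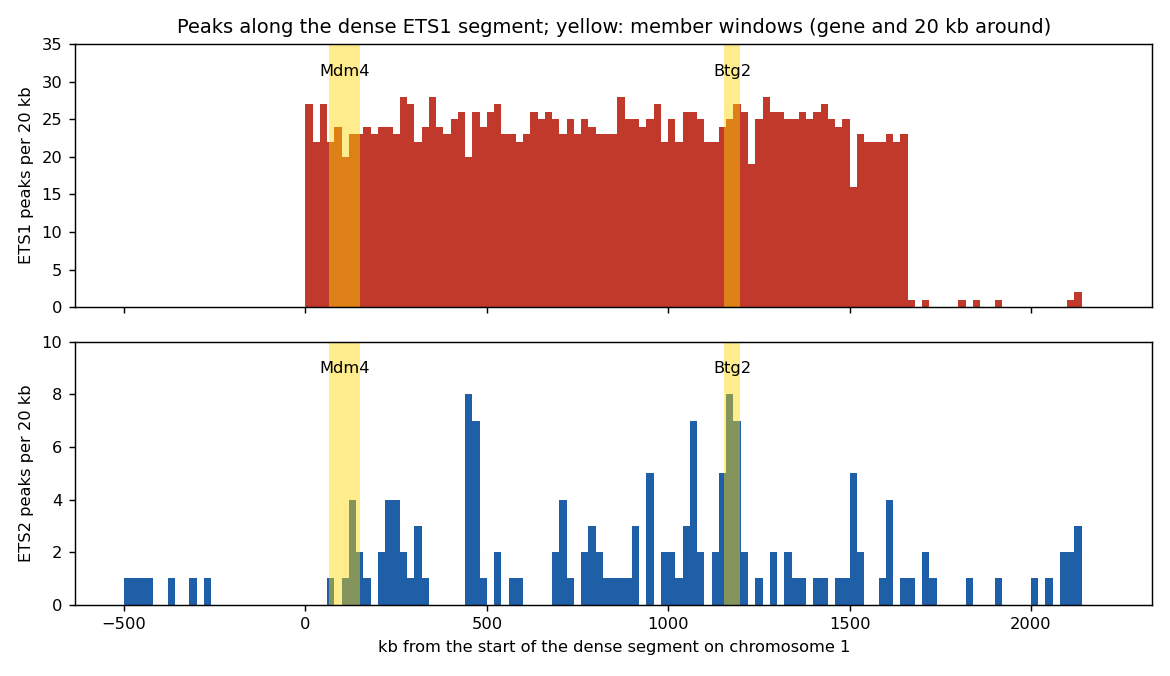
ETS1 (upper panel) and ETS2 (lower panel) peaks per 20 kb along the dense segment of chromosome 1 and 500 kb on either side; yellow marks the windows of Mdm4 and Btg2. The ETS1 panel is flat between 16 and 28 over 1660 kb with no rise at either gene, whereas the ETS2 panel is uneven and reaches its highest count, 8, in a bin of the Btg2 window and in 1 other bin.

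Mdm4 held 96 ETS1 peaks (77.8 to 117.0) over its window and Btg2 57 (43.2 to 73.9), or 11.4 and 12.9 per 10 kb. The segment itself had 11.8 per 10 kb, so neither gene stood apart from it, and of the 31 other protein-coding genes there, 23 were at or above Mdm4 and 7 at or above Btg2. Each of the 31 also had an ETS1 end peak. The ETS1 peaks at the starts shown above, centred 49 bp before the outer Mdm4 start and 292 bp before that of Btg2, are therefore not particular to these promoters. Neighbouring ETS1 centres were a median of 745 bp apart over Mdm4 and 760 bp over Btg2, where the calling allowed no less than 354 bp. All 153 ETS1 peaks stood in the first 50% of the list, at a median place of 1.78% for Mdm4 and 0.732% for Btg2.

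The ETS2 list was sparser and uneven there. Mdm4 had 8 ETS2 peaks (3.45 to 15.8), 0.947 per 10 kb beside 0.812 in the segment and 0.145 on the rest of chromosome 1. None lay within 1 kb of a gene end, but a peak at chr1:133025168-133025354 (place 18.7%) lay 155 bp after the inner annotated start and overlapped an ETS1 peak at chr1:133025200-133025376. At the neighbour Pik3c2b, a lipid kinase gene, an ETS2 peak (chr1:133046059-133046245) lay 140 bp from the start. Btg2 had 14 ETS2 peaks (7.65 to 23.5), 3.16 per 10 kb, more than any of the 31 other genes of the segment, whose values ran from 0 to 3.02. The intervals of the 2 genes' counts overlap, although the Btg2 window is shorter, 44.3 against 84.5 kb.

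Of the Btg2 peaks in the ETS2 list, 2 lay inside the gene and 12 outside it. The nearest to the start (chr1:134078464-134078650) was centred 598 bp after it, at 80.6% of the order, and those at the opposite end (chr1:134074230-134074416 and chr1:134074925-134075111) lay 542 bp outside and 153 bp inside. The highest place, 10.6%, belonged to a peak 14145 bp upstream (chr1:134093207-134093393). Over both windows 18 of 22 ETS2 peaks overlapped the ETS1 list (81.8%, 61.5 to 92.7). ETS1 peaks covered 20.9% of the bases of the segment. The share of ETS2 peaks that would meet an ETS1 peak by position alone is larger than that, as 1 shared base sufficed. Of all ETS2 peaks in the segment, 73.9% overlapped an ETS1 peak, against 19.4% over the genome, where ETS1 peaks are sparser. Whether the overlap goes beyond what this density gives was not tested. How the dense segment arose was not tested.

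Counted from annotated starts alone, 4 of the 6 genes in the promoter table had an ETS1 centre no further than 1 kb away (Trp53, Mdm4, Btg2 and Max) and 5 an ETS2 peak (the same genes and Mdm2). The background was 38.5% and 40.4% of 17492 protein-coding genes in that table. Without the dense segment the counts were Trp53 and Max for ETS1, and Trp53, Mdm2 and Max for ETS2.

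The wider pathways were read at gene ends only, from lists that hold none of the 8 genes. The shares to read them against are those over all genes, 39.4% for ETS1, 40.0% for ETS2 and 28.7% for both. Of 30 genes of the p53 pathway, 17 had an ETS1 peak at an end, by the same limit of 1 kb (56.7%, 39.2 to 72.6), and 20 an ETS2 peak (66.7%, 48.8 to 80.8), with 12 in both lists and 5 in neither. The lower bound of the ETS1 interval lies just under the share over all genes. The median window held 3 ETS1 and 4 ETS2 peaks, beside 2 and 2 over all genes. Cdkn1a, which encodes the cell cycle inhibitor p21, had peaks 35 bp (ETS1) and 107 bp (ETS2) from an end, and its window held 16 and 6. Bax, a cell death effector, and Gadd45a, a damage response gene, had both as well. Ccng1 (cyclin G1) and Polk (a repair polymerase) were in the ETS1 list alone at their ends, the former with its nearest ETS2 peak 1207 bp away. Bbc3, which encodes the death factor PUMA, and the sestrin gene Sesn1 were in the ETS2 list alone at their ends. The Bbc3 window held 3 ETS1 and 13 ETS2 peaks, and the Sesn1 window 18 and 16. Pmaip1 (NOXA) and the death receptor gene Fas had neither.

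All 5 relatives of Btg2 in the BTG and TOB family of antiproliferative genes had an ETS1 peak at an end (100%, 56.6 to 100) and 4 an ETS2 peak (80.0%, 37.6 to 96.4), each outside the dense segment. Btg1 had peaks 66 and 33 bp from an end, Btg3 42 and 121 bp, and Tob1 729 and 963 bp. Btg4 had the ETS1 peak alone, 188 bp from an end, with its nearest ETS2 peak 1626 bp away. Over all genes the shares were 39.4% and 40.0%, and the ETS2 interval of these 5 genes takes in the latter. The ETS1 interval lies above the former. Of genes on chromosomes 10 and 11, which carry Btg1 and Tob1, 54.8% and 57.1% had an ETS1 end peak. The background over all genes takes in every gene whatever its expression, and these 5 genes were chosen with earlier results of these data known.

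Of 20 genes of the MYC and MAX network, 14 had an ETS1 peak at an end (70.0%, 48.1 to 85.5) and 13 an ETS2 peak (65.0%, 43.3 to 81.9), 10 of them in both lists. Both intervals lie above the 39.4% and 40.0% of all genes, but end shares differ between chromosomes. On chromosome 11, which carries Mnt, they were 57.1% and 46.2%, and the list was not set against the chromosomes of its genes. The background over all genes takes in every gene whatever its expression, and the list was chosen with earlier results of these data known. Beside MAX partners the list holds genes such as Odc1, Npm1 and Cad. Mycl, the third MYC family gene, had peaks 420 and 32 bp from an end, unlike Mycn. Mxd4 and Mga, whose products pair with MAX, also had both. The MAX partners Mxd3 and Mnt were in the ETS1 list alone at their ends, the latter with an ETS2 peak 1041 bp away. Mxd1 and Mlxip, which encodes the glucose-responsive factor MondoA, were in the ETS2 list alone at their ends. Mxi1 and Mlxipl had neither, although at Mxi1, another MAX partner gene, an ETS1 centre 1050 bp from an end fell just past the limit.

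Of 20 RB relatives and partners, 11 had an ETS1 peak at an end (55.0%, 34.2 to 74.2) and 10 an ETS2 peak (29.9 to 70.1%), with 8 in both and 7 in neither. These intervals take in the 39.4% and 40.0% of all genes. The pocket protein genes Rbl1 (396 and 345 bp) and Rbl2 (223 and 365 bp) had both, as did Tfdp2, a dimerisation partner of E2F. Tfdp1 and Suv39h1, a histone methyltransferase gene on the X chromosome, were in the ETS1 list alone at their ends. Cdk6, a kinase that phosphorylates RB, and its inhibitor Cdkn2b were in the ETS2 list alone at their ends. The histone chaperone genes Rbbp4 and Rbbp7 had neither and held 0 peaks of either list over their windows. The X chromosome, which carries Suv39h1 and Rbbp7, was nearly empty, with 95 ETS1 and 40 ETS2 peaks in all (0.00556 and 0.00234 per 10 kb). No list was tested against other genes.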

How the data were processed

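Peak lists of 1 ETS1 and 1 ETS2 antibody library were used as deposited. Per the labels' protocols, 10 µg of antibody went into each immunoprecipitation. CASAVA 1.8, Bowtie2 and HOMER are named in the submitters' processing notes, beside the builds mm9 and mm10. Per the file headers, HOMER findPeaks in its factor style made the lists from tag directories named for mm10, so positions were read as mm10. No control directory appears in the command, the false discovery rate was 0.01, the threshold 30 tags, and 0 peaks were removed as local or clonal. Peaks were 177 bp (ETS1) and 187 bp (ETS2) wide, per the file headers and the deposited ends, with 1 exception in each list. The score column that the authors deposited holds the constant 1, so neither depth nor height per peak was used, and the files give no tag count per peak.

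Positions are 1-based. Genes came from a RefSeq table of GRCm38.p6, and starts and strands from its promoter table, which holds 6 of the 8 genes. Peaks were counted over a gene and 20 kb around if they overlapped it by 1 bp, and at a gene end if the centre lay within 1 kb. With 1 library per antibody no test across libraries was possible. Counts carry exact Poisson intervals and shares Wilson intervals at 95%, and neighbouring peaks are not independent. Counting was tested on simulated peaks. Python 3.11.15, pandas 2.3.3, numpy 2.4.6, scipy 1.17.1 and matplotlib 3.10.9 were used. The genes and pathway lists were chosen with earlier results of these data known. All 8 genes are named in full. Of each pathway list, in list order, the text takes the first 3 genes with end peaks in both lists, 2 in each list alone and 2 in neither, as well as protein-coding neighbours holding a counted peak. Alternatives changed the window, the end distance, the overlap definition and the part of the list used.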

Additional observations from a re-analysis of the deposited data

How the results depend on the processing

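Of 36 recomputed counts, 24 stayed within 1.5 times of the reported value. With 5 kb around the genes, the Mdm4 and Btg2 windows held 82 ETS1 and 9 ETS2 peaks in place of 153 and 22. With 50 kb they held 294 ETS1 peaks, and the other 6 windows 63 in place of 37; wider windows hold more sequence. An ETS1 peak lay within 500 bp of an end at 2 genes in place of 5. In the first 50% of each list, which splits tied peaks by chromosome, the 6 windows held 22 ETS1 and 19 ETS2 peaks and the Mdm4 and Btg2 windows 9 ETS2 peaks. Overlapping peaks over the 6 windows numbered 13 and 14 for centres within 500 bp and 4 and 3 for an overlap of at least 50% of the peak, in place of 7 and 7. Counting from annotated starts was chosen after seeing the data. No paired analysis was possible because each antibody has 1 library. A single tag threshold over the genome limits what a missing peak says, at Mycn as elsewhere.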

Other observations

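Beyond its 20 kb window, Myc had far more peaks on the higher-coordinate side than on the other. The 500 kb above the gene held 61 ETS1 and 36 ETS2 peaks, 1.22 and 0.720 per 10 kb, and the 500 kb below it 21 and 0. No other protein-coding gene lies in either flank. Much of the upper flank is Pvt1, a long non-coding RNA gene (chr15:62037986-62260215), with 48 ETS1 and 25 ETS2 peaks over 222 kb. Mycn flanks of the same length held 17 ETS1 and 8 ETS2 peaks above and 4 and 5 below. These flanks were chosen after the window counts were seen.

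The microRNA genes that p53 and MYC are known to activate were also read with 20 kb on either side, outside the planned comparisons. Distances run from the middle of each microRNA gene, not from the start of its transcript. No background was counted for microRNA windows. Of protein-coding gene windows, 70.8% (ETS1) and 69.8% (ETS2) held a peak. Mir34a (chr4:150068454-150068555) had 3 ETS1 and 1 ETS2 peaks, none closer than 5527 bp. The Mir34b and Mir34c cluster on chromosome 9 had 3 ETS1 peaks and 1 ETS2 peak, and an ETS1 centre lay 14 bp from the middle of Mir34c (chr9:51103034-51103110). The cluster from Mir17 (chr14:115043671-115043754) to Mir92-1 had 3 and 1, with the nearest ETS1 centre 1424 bp from Mir17. The mature sequences from RefSeq GRCm38.p6 are given with bases 2 to 8, the seed, in capitals. The p53-induced pair shares the seed GGCAGUG, and miR-17-5p and miR-20a-5p share AAAGUGC.
mmu-miR-34a-5p: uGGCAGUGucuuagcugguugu
mmu-miR-34b-5p: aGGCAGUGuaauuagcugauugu
mmu-miR-17-5p: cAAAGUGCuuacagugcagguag
mmu-miR-20a-5p: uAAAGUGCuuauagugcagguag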
